A study of Homo sapiens with 2 samples.

Results

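The albumin gene cluster on chromosome 4 was examined in PLC8024 cells, a line of human hepatocellular carcinoma (HCC) also called PLC/PRF/5 or Alexander cells, in a MAEL WT and a MAEL KO sample. Its 4 members, ALB, AFP, AFM and GC, were taken by gene symbol from the 58735 genes of the deposited count table, and 3 of the 4 had at least 10 counts in at least 1 library, as had 17887 genes in all. The members were selected on their measured difference between the same 2 libraries, so their fold changes are given as a description with no test. The MAEL WT sample was labelled wildtype in genotype. The MAEL KO sample carried a knockout of MAEL made with an sgRNA and Cas9, after which mCherry-sorted cells were seeded to grow single clones. The labels name no drug or other agent for either sample. Each condition is 1 library, so the spread between clones, cultures or libraries is not known, and an effect of the edit cannot be told apart from a difference between clones.

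The albumin gene family encodes carrier proteins that the liver secretes into plasma. Albumin (ALB) is the main protein of adult plasma and carries fatty acids, hormones and drugs, alpha-fetoprotein (AFP) is its fetal counterpart and a serum marker of HCC, afamin (AFM) carries vitamin E, and the vitamin D-binding protein (GC) carries vitamin D metabolites and binds extracellular actin. AFP is abundant in fetal liver and is shut down after birth, while ALB stays active in adult hepatocytes, and both genes are driven by promoter and enhancer elements bound by liver factors, among them the C/EBP, FOXA and HNF4 families.

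On GRCh38, ALB (ENSG00000163631) lies on the plus strand of chromosome 4 from 73397114 to 73421412, AFP (ENSG00000081051) from 73431138 to 73456174 and AFM (ENSG00000079557) from 73481683 to 73504001. These 3 genes stand head to tail, with 9725 bp between ALB and AFP and 25508 bp between AFP and AFM, and no other gene with at least 10 counts was listed between them. GC (ENSG00000145321) lies on the minus strand from 71741693 to 71804041, 1593 kb before ALB, so it belongs to the same family and chromosome arm but is no immediate neighbour. ALB, AFP and AFM each had a transcript of 15 exons and GC one of 14 exons. No sequence of 31 bases was shared between the transcripts of any pair of members, and at most 0.0543% of the 31-base sequences of a member, in ALB, occurred in another gene, so reads of the members can be told apart.

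The promoters of the 3 adjacent genes are shown because these neighbours ended at very different levels. Each line gives the 250 bases before the start site in RefSeq (GRCh38.p14, plus strand), with ALB at chr4:73404037-73404286, AFP at chr4:73435971-73436220 and AFM at chr4:73481495-73481744. The spans of ALB and AFP in the count table begin further upstream, since they hold longer transcripts. Capitals mark the motif matches described after the sequences, and 3 of the 4 members were matched in the RefSeq table.
ALB: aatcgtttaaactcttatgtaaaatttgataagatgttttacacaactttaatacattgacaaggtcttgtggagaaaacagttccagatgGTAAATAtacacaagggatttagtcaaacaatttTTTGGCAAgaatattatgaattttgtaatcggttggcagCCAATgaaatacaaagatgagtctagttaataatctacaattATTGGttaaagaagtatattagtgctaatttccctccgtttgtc
AFP: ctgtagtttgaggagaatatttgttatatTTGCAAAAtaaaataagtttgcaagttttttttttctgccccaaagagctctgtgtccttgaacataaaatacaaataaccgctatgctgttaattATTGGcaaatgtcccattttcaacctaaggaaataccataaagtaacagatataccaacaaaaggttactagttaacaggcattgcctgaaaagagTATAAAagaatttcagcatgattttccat
AFM: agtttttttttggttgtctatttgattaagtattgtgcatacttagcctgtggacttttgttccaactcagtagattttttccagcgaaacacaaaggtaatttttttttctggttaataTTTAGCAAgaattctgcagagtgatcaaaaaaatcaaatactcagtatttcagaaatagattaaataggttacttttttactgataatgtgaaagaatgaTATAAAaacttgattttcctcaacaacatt

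The 3 promoters were poor in G and C, at 30%, 31.6% and 28% for ALB, AFP and AFM against a median of 58% over the same 250 bases of 27305 RefSeq promoters, of which 1.63%, 2.51% and 0.861% were poorer. The motifs were searched on both strands from 250 bases before to 50 bases after the start. TTGCNNAA, the core bound by C/EBP factors, was present in all 3, beginning 125 bases before the start in ALB, 221 in AFP and 130 in AFM, against 10.6% of all promoters. In ALB and AFM this match was on the minus strand, where it reads TTTGGCAA and TTTAGCAA on the printed strand. TATAAA, the TATA box, began 29 bases before the start in AFP and 30 in AFM, and 12.0% of all promoters held it. CCAAT was found 86 bases before the start of ALB, and on the minus strand 44 bases before the start of ALB and 125 before that of AFP, with a further match after the start of AFP, against 35.7% of all promoters. The forkhead motif TATTTAC was found on the minus strand of ALB, 159 bases before the start, and in 2.77% of all promoters. TGTTTAC, in 3.41% of all promoters, and the HNF4 motif CAAAGTCCA, in 0.359%, had no match in these 3 windows. In none of the 3 windows did a marked match overlap another. The shares over all promoters were not matched for G and C content. They therefore do not tell whether a motif is more common here than in promoters equally poor in G and C. The matches describe letters only and were not measured as bound sites.

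The libraries summed to 19904136 counts for MAEL WT and 20833332 for MAEL KO. MAEL itself (chromosome 1, 166975582 to 167022214, plus strand) gave 1 count in the unedited library and 0 in the knockout library. Neither exceeds the floor of 3 counts, so MAEL transcript gives no check of the labels. Fold changes are log2 ratios of MAEL KO to MAEL WT after TMM scaling with 1 added. The 95% intervals are exact for independent counts and cover counting error alone, because each condition is 1 library. These reads carried no molecular identifiers, so copies of 1 molecule may be counted repeatedly, which the intervals do not cover. FPKM, which divides counts by gene length and library size, was used wherever levels of different genes were compared. All 8 hepatocyte markers were above the count minimum, with unscaled summed counts of 277676 and 466870. Most of these came from CPS1 (111749 and 80231), APOB (80091 and 135805) and SERPINA1 (78162 and 232891), so CPS1 did not share the rise of the sum. TTR had only 20 and 155 counts and TAT 162 and 146. The blood markers HBB and CD3E were at 0 in both libraries and PTPRC had 3 and 0 counts, CD68 2 and 5 and HBA1 7 and 16, while LYZ gave 1251 and 737 of the 1263 and 758 counts of the 6 blood markers. Summed counts in MAEL WT and MAEL KO were 456 and 140 for 6 cholangiocyte markers, 275 and 177 for 6 stellate and fibroblast markers (COL1A1 92 and 11, PDGFRB 122 and 29, but COL3A1 54 and 136) and 358 and 407 for 5 endothelial markers, the last nearly all PECAM1 with 348 and 392. Both samples were cultures of the PLC8024 line, so these marker counts do not show that other cell types were present. A part of other cells in the members' difference was not tested. In bulk RNA, more cells that express a gene and more RNA per cell cannot be told apart.

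ALB had 59 counts in MAEL WT (95% Poisson interval 44.9 to 76.1) and 8550 in MAEL KO (8369.7 to 8733). ALB was thus detected at a low level in the first library and at a far higher one in the second. Its FPKM was 0.799 and 134, and the number of protein-coding genes with a higher FPKM went from 11340 to 266. The difference was 165-fold, a log2 fold change of 7.36 (7.02 to 7.78), and 1 of the 17887 genes had a larger log2 fold change. ALB alone took 0.0410% of all counts in the MAEL KO library.

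AFP followed with 26 counts in MAEL WT (17.0 to 38.1) and 1351 in MAEL KO (1279.9 to 1425). Its FPKM was 0.365 and 21.9, with 12321 and 2316 protein-coding genes at a higher FPKM. The log2 fold change was 5.85 (5.35 to 6.53), or 57.8-fold, and 4 of the 17887 genes had a larger one. The fetal member of the family was therefore also far higher in the MAEL KO library, and its counting interval lay wholly below that of ALB.

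GC, on the far side of the region, had 17 counts in MAEL WT (9.90 to 27.2) and 176 in MAEL KO (151 to 204). Its FPKM was 0.326 and 3.90, and 7822 protein-coding genes were still above it in MAEL KO. The log2 fold change was 3.50 (2.86 to 4.39), or 11.3-fold, with 62 genes showing a larger one.

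AFM was the exception in level. It had 0 counts in MAEL WT (upper Poisson limit 3.69) and 5 in MAEL KO (1.62 to 11.7), with FPKM listed at 0 and 0.118, and it stayed under the count minimum of 10. Set against the floor of 3 counts, AFM was 1.93-fold higher in MAEL KO, a ratio that leaves out counting error. The lower end of its counting interval was 0.08 on the log2 scale. The gene beside AFP was thus barely detectable in either library at this depth.

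**Figure D1:**
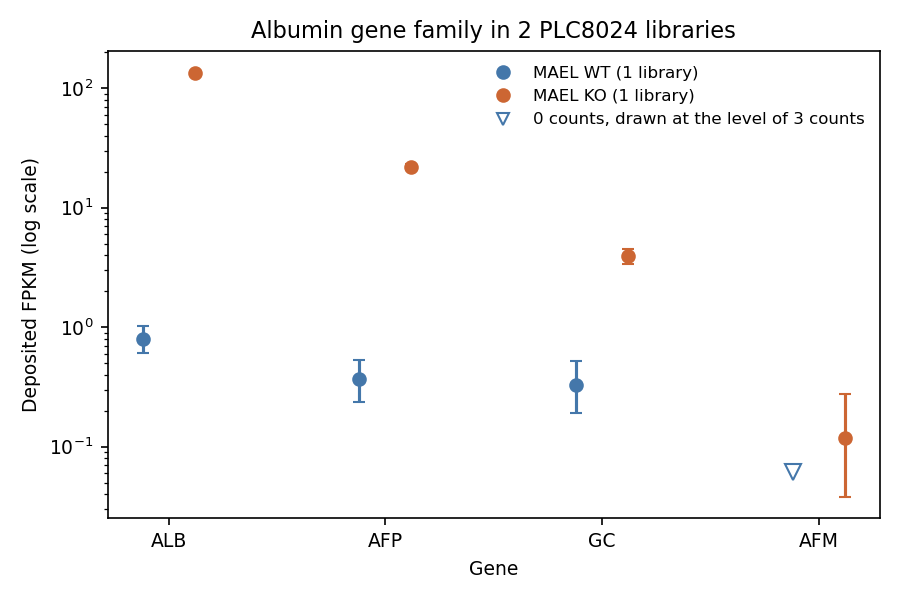
Deposited FPKM of the 4 members (log axis) in MAEL WT (blue) and MAEL KO (orange), 1 library each; bars are 95% Poisson counting intervals and the open triangle is 0 counts drawn at the level of 3 counts. ALB, AFP and GC lay between 0.326 and 0.799 FPKM in MAEL WT and spread from 3.90 to 134 in MAEL KO.

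All 3 members that reached the count minimum exceeded a log2 fold change of 2, where 2.16% of all genes (387 of 17887) did so and 5.64% (1008) lay below -2, counts that became 269 and 1309 when the libraries were scaled by total counts. Since the members were chosen from this contrast, nothing is read from that count. GC had the smallest log2 fold change of the 3, still above the threshold of 2, while AFM had a fitted value above 2 that rests on 5 counts and depends on the added count.

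The members spread apart in MAEL KO. The ratio of 2 genes within a library does not depend on how the libraries are scaled. Per length, ALB was 2.19 times AFP in MAEL WT and 6.11 times AFP in MAEL KO, so the ratio of AFP to ALB went from 0.457 to 0.164, a 0.359-fold change (counting interval 0.222 to 0.595). ALB was 2.45 times GC in MAEL WT and 34.3 times GC in MAEL KO, and the ratio of GC to ALB changed 0.0714-fold (0.0401 to 0.134). AFP stood to GC at 1.12 and then at 5.61, a 5.02-fold change (2.50 to 9.81). In MAEL WT the FPKM of AFP and GC lay within each other's counting intervals, whereas in MAEL KO the order ALB, AFP, GC and AFM was separated by counting intervals that did not overlap. AFM in MAEL KO was lower than ALB by a factor of 1136 per length.

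Among 32 other plasma proteins made by hepatocytes, ALB moved from the lower part of the range towards its middle. By FPKM, 22 of the 32 were above ALB in MAEL WT and 13 in MAEL KO. For AFP these numbers were 24 and 20, for GC 24 and 22, and for AFM 32 and 27. The highest of the list was AMBP in MAEL WT, with 1169 FPKM, and SERPINA1 in MAEL KO, with 2506 FPKM, so ALB, which leads this list in adult plasma, had neither place here.

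By fitted log2 fold change, the genes around the cluster differed less between the libraries than ALB and AFP, and those past the threshold were lower in MAEL KO. Within 2 Mb of the region from GC to AFM, 92 other genes were listed and 24 reached the count minimum. None of the 24 exceeded a log2 fold change of 2, which is close to the 2.16% of all genes, while 5 (20.8%) lay below -2 against 5.64% of all genes, and the median was 0.01 against -0.04 over all genes (-0.26 and -0.31 with scaling by total counts). Between GC and AFM only ANKRD17, COX18 and NPFFR2 could be compared. ANKRD17, an ankyrin-repeat protein gene that ends 138 kb from ALB, had 2076 and 2795 counts and a log2 fold change of 0.64 (0.56 to 0.72). COX18, an assembly factor of cytochrome oxidase 327 kb from ALB, had 572 and 537 counts and a value of 0.12 (-0.05 to 0.29). NPFFR2, a neuropeptide receptor gene 228 kb from GC, had 107 and 38 counts and was lower, at -1.26 (-1.86 to -0.74).

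Before GC, 6 of 37 listed genes reached the count minimum and all 6 lay between -0.64 and 0.88. They were UTP3 (0.57), RUFY3 (-0.64), GRSF1 (0.50), MOB1B (0.19), DCK (0.88) and SLC4A4 (0.71), the last a bicarbonate transporter gene 170 kb from GC.

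After AFM, 15 of 41 listed genes reached the count minimum, with a median of -0.44, and the 5 genes below -2 all lay on this side. RASSF6, the nearest at 67.5 kb from AFM, had 114 and 45 counts and a log2 fold change of -1.11 (-1.66 to -0.62). CXCL8, which encodes the chemokine IL-8, lies 237 kb from AFM and had 5434 and 1039 counts, a value of -2.18 (-2.27 to -2.08). EREG and AREG, which encode EGF receptor ligands, lie 861 and 941 kb away and had values of -2.66 (-2.75 to -2.59) and -2.73 (-2.80 to -2.65), with 10556 and 1438 counts for EREG and 11742 and 1533 for AREG. A further EGF receptor ligand gene, BTC, had 24 counts and 1 count, and its counting interval ran from -9.74 to -1.76. It reached the count minimum only in MAEL WT. PARM1, at 1429 kb, had 2943 and 349 counts and a value of -2.86 (-3.03 to -2.71). The other chemokine genes of this stretch were mixed, with CXCL1 at 0.87, CXCL5 at 0.27, CXCL2 at 0.04, CXCL6 at -0.30 and CXCL3 at -0.44. PF4 was lower in MAEL KO, at -1.10 (-2.08 to -0.28) with 41 and 16 counts. MTHFD2L was at 0.39, RCHY1 at -0.01 and the antisense gene AC093677.2, with 4 and 10 counts, at 1.32. Reads of close chemokine copies may be split, since 22.4% of the 31-base sequences of CXCL2 and 14.4% of those of CXCL1 occur in other genes.

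**Figure D2:**
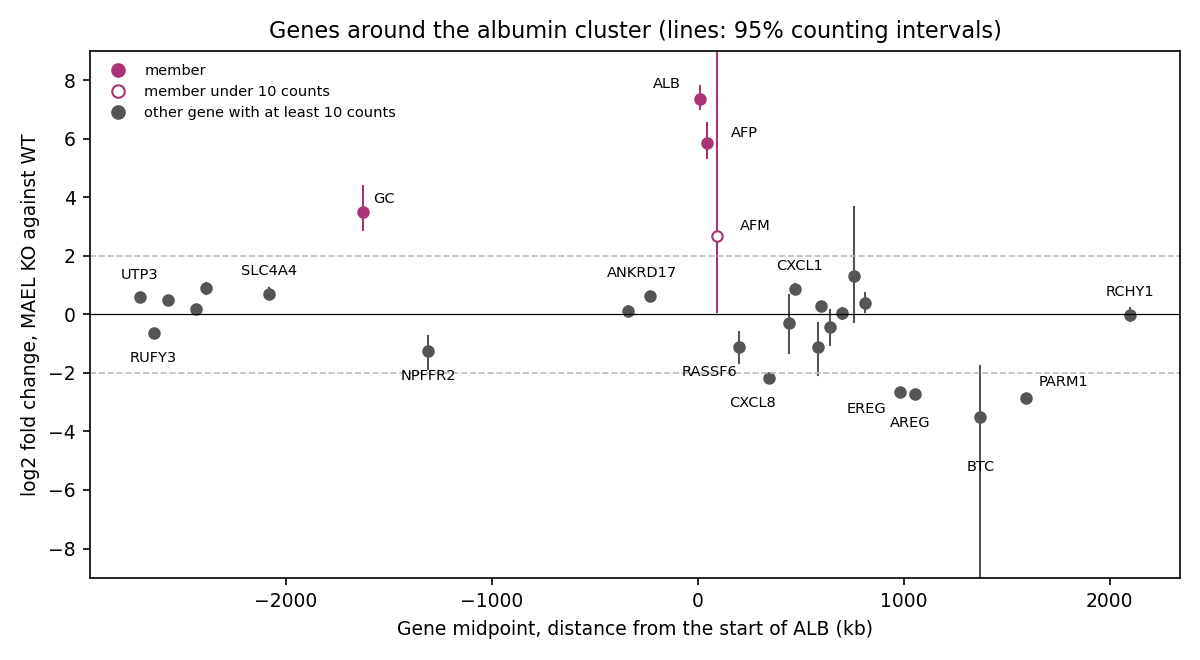
Log2 fold change, MAEL KO over MAEL WT (y axis), by distance of the gene midpoint from the start of ALB in kb (x axis), for the 4 members (purple, AFM open) and the 24 neighbours with at least 10 counts (grey); lines are 95% counting intervals, which for AFM and BTC run beyond the axis, and dashed lines mark 2 and -2. ALB, AFP and GC stood above 2, as did the fitted value of AFM, 2.68, which rests on 5 counts. No neighbour stood above 2, and CXCL8, EREG, AREG, BTC and PARM1 lay below -2, with the interval of BTC reaching -1.76.

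Over chromosome 4 without the members, 15 of 613 genes (2.45%) exceeded 2 and 40 (6.53%) lay below -2, with a median of -0.13, close to the shares over all genes.

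By the size of the difference, the genes nearest to ALB were IL1RN, which encodes the interleukin-1 receptor antagonist, then G6PC, FABP1, AFP and ADH1C. IL1RN had 0 and 191 counts, 73.7-fold higher in MAEL KO when set against the floor. The lower end of its counting interval was 5.89 on the log2 scale. G6PC, the glucose-6-phosphatase of gluconeogenesis, had 26 and 1671 counts and a log2 fold change of 6.16 (5.66 to 6.84). FABP1, the liver fatty acid-binding protein, had 44 and 2596 counts and a value of 6.06 (5.66 to 6.56). The log2 fold change of FABP1 was within 0.21 of that of AFP and that of G6PC within 0.31. The next nearest to AFP were the alcohol dehydrogenase gene ADH1C (1 and 71 counts, interval 3.84 to 11.68), the complement factor gene CFI (5 and 192 counts, 5.20) and the mannose-binding lectin gene MBL2 (1 and 63 counts, interval 3.66 to 11.51). ADH1C and CFI are also on chromosome 4, outside the 2 Mb window, and 32.7% and 34.5% of their 31-base sequences occur in other genes. Likeness here is the distance between 2 log2 fold changes over 2 libraries.

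Transcription factors known to act on the ALB and AFP promoters or enhancers were mostly expressed in both libraries. This list and those below were chosen with earlier results of these data known. Their shares past the threshold are therefore a description only. Of 32 listed factors 31 reached the count minimum, 4 (12.9%) exceeded 2 against 2.16% of all genes, 1 (3.23%) lay below -2 against 5.64%, and their median was 0.25, which became -0.028 with scaling by total counts, a choice that also takes the median of all genes from -0.04 to -0.31. HNF4A had 2816 and 5391 counts, a value of 1.15 (1.08 to 1.21). Among C/EBP factors the values went in different directions, with CEBPA at 0.07 (1220 and 1109 counts), CEBPD at 1.10 (700 and 1295) and CEBPB at -2.23 (9375 and 1723, interval -2.31 to -2.16).

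The 4 factors above 2 were NR1H4, HLF, NR2F1 and TEF, and the number above 2 was 2 with total counts or with 5 added. NR1H4 and NR2F1 reached the count minimum only in MAEL KO, so they were counted only because they were high there. NR1H4, the bile acid receptor FXR, had 9 and 270 counts and a log2 fold change of 4.96 (4.17 to 6.26). HLF and TEF are PAR bZIP factors that bind the albumin D site. HLF had 214 and 1445 counts (2.96, interval 2.76 to 3.18), and TEF had 72 and 253 counts (2.01, interval 1.64 to 2.42), just over the threshold. The third PAR bZIP factor, DBP, was at -0.46 with 620 and 388 counts. NR2F1 had 2 and 11 counts, with an interval of 0.47 to 5.88. HHEX and PROX1, homeobox factors of liver development, were at 1.91 (641 and 2090 counts) and 1.64 (586 and 1581 counts).

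The forkhead factors had values of 0.75 for FOXA1, -0.46 for FOXA2 and 0.06 for FOXA3. Known repressors of AFP were mixed. NR2F2, the orphan receptor COUP-TFII, had 1008 and 2439 counts and a log2 fold change of 1.48 (1.38 to 1.59). ZHX2 had 1174 and 1205 counts and a value of 0.25 (0.13 to 0.37), ZFHX3 831 and 738 counts and 0.04 (-0.11 to 0.18), and ZBTB20 55 and 60 counts and 0.33 (-0.22 to 0.89), where 47.4% of the 31-base sequences of ZBTB20 occur in other genes. GATA6 was under the count minimum with 7 and 2 counts.

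**Figure D3:**
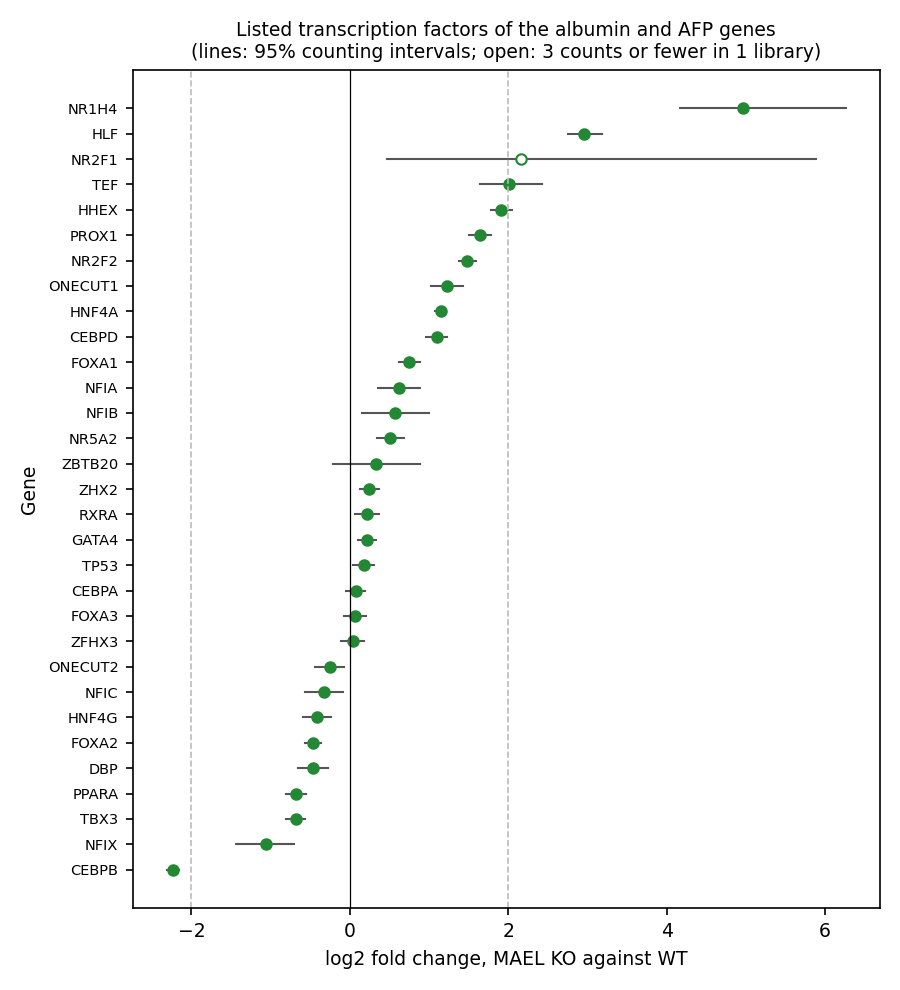
Log2 fold change, MAEL KO over MAEL WT (x axis), for the 31 transcription factors with at least 10 counts (y axis), with 95% counting intervals as lines and an open point for NR2F1 with 2 counts in MAEL WT; dashed lines mark 2 and -2. Most factors sat between the lines, NR1H4 stood at 4.96 and CEBPB at -2.23.

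The other plasma proteins, also listed with earlier results known, mostly pointed the same way as the members by smaller amounts. Of 32 listed 29 reached the count minimum, 7 (24.1%) exceeded 2 against 2.16% of all genes, none lay below -2 against 5.64%, and the median was 0.97. Those above 2 included APOA1, the main HDL apolipoprotein, with 419 and 4400 counts and a log2 fold change of 3.60 (3.46 to 3.75). Antithrombin (SERPINC1) had 8 and 69 counts and 3.16 (2.26 to 4.59). Transthyretin (TTR), a carrier of thyroid hormone and of retinol-binding protein, had 20 and 155 counts and 3.10 (2.49 to 3.92). The fetuin gene AHSG was at 2.42 (559 and 2590 counts) and ITIH1 at 2.51 (57 and 285 counts). ORM2 was at 3.14 with 73 and 564 counts, although 59.3% of its 31-base sequences occur in other genes, ORM1 among them. HP, haptoglobin, had 1 and 38 counts with an interval of 2.89 to 10.80. SERPINC1 and HP reached the count minimum only in MAEL KO, so they were counted only because they were high there. The 5 transcripts of the list with the highest FPKM in MAEL KO had smaller values, with SERPINA1 at 1.79, FGB at 1.41, AMBP at 0.23, FGA at 0.39 and APOA2 at 1.17. APOB was at 0.97 and transferrin (TF) at 0.36. The lowest value was -1.95 for A1BG, with 21 and 4 counts. ALB and AFP had larger fitted log2 fold changes than any gene of this list, and GC lay between SERPINC1 and APOA1.

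Genes that are often expressed with AFP in fetal liver and liver tumours were mixed. Of 17 entries 13 reached the count minimum, 2 (15.4%) exceeded 2 against 2.16% of all genes, 2 (15.4%) lay below -2 against 5.64%, and the median was 0.66. These counts became 1 and 0 with 5 added or with a minimum of 100 counts. GPC3, a glypican of fetal liver and HCC, had 3196 and 21285 counts and a log2 fold change of 2.95. H19, an imprinted non-coding RNA, had 2 and 18 counts (interval 1.32 to 6.53) and reached the count minimum only in MAEL KO. PEG10 and SALL4 were at 1.84 and 1.02. The epithelial progenitor markers EPCAM, with 15 and 0 counts, and KRT19, with 13 counts and 1 count, were the 2 below -2. Both reached the count minimum only in MAEL WT, and the interval of KRT19 ran from -8.90 to -0.76. CD24 and PROM1 of the same list had far more counts and were not lower. CD24 was at 1.58 (5275 and 13639 counts, interval 1.53 to 1.63) and PROM1 at 0.13 (799 and 755 counts, interval -0.02 to 0.27). Set against the floor, EPCAM was 4.32-fold lower in MAEL KO, with an upper interval end of -1.63 on the log2 scale. IGF2, another fetal liver gene, had at most 2 counts in either entry.

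Receptors and enzymes that handle the cargo of the members had a median of 0.03 over 15 of 16 genes, or -0.24 with scaling by total counts. LRP2, megalin, the endocytic receptor of GC and albumin in kidney, had 406 and 4638 counts and a log2 fold change of 3.72 (3.58 to 3.87). Its partner receptor CUBN was at 1 count and 0 counts. TTPA, the vitamin E transfer protein of liver, had 12 and 48 counts (2.11, interval 1.28 to 3.26). CYP24A1, which inactivates vitamin D, had 2997 and 479 counts (-2.43, interval -2.58 to -2.30), and the vitamin D receptor gene VDR had 30 and 10 counts (-1.30, interval -2.57 to -0.30). FCGRT, the receptor that recycles albumin, was at -0.34 with 1979 and 1349 counts. Of the 15, 2 (13.3%) exceeded 2 against 2.16% of all genes and 1 (6.67%) lay below -2 against 5.64%, and the 2 became 1 with total counts, with 5 added or with a minimum of 100 counts.

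Genes for disulfide folding, export and propeptide processing of secreted proteins showed no member past 2 in either direction among 15 compared. Over all genes 2.16% exceeded 2 and 5.64% lay below -2, so none among 15 is near those shares. The median was -0.02. ERO1A, an oxidase of disulfide formation, was at 1.96 with 4423 and 14859 counts, and its paralogue ERO1B at -1.08. HSPA5, the chaperone BiP, was at -0.99 with 63389 and 27544 counts. FURIN, the protease that removes the albumin propeptide, was at -0.03.

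**Figure D4:**
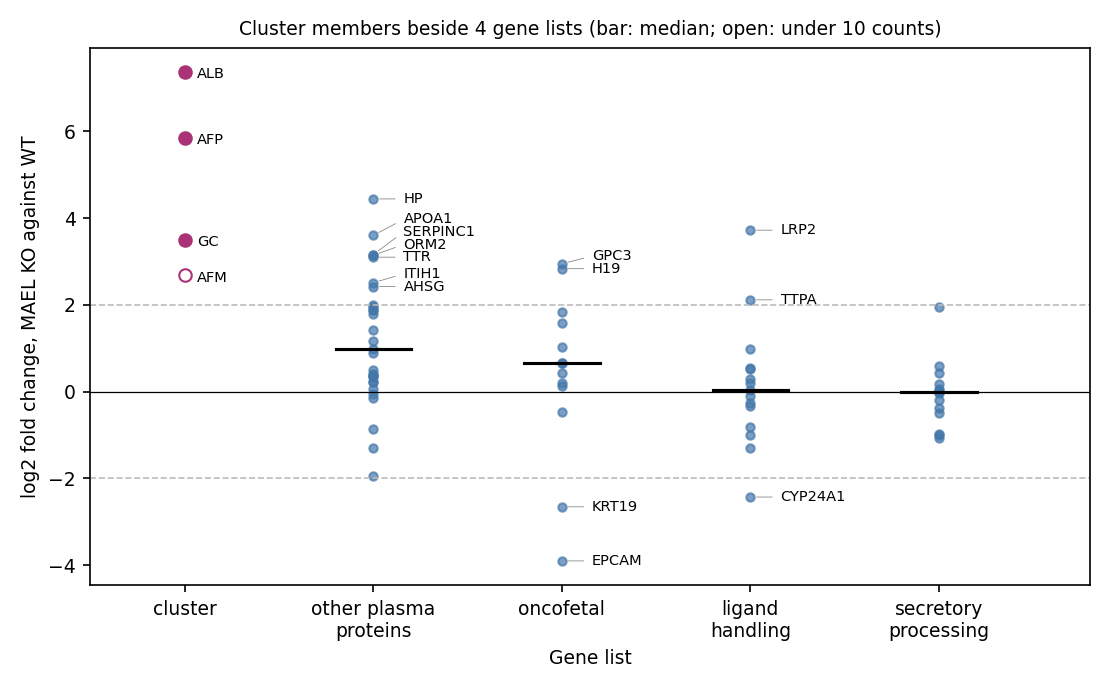
Log2 fold change, MAEL KO over MAEL WT (y axis), for the 4 cluster members (purple, AFM open for its 5 counts) and for genes with at least 10 counts in 4 lists (blue), with bars at the list medians of 0.97, 0.66, 0.03 and -0.02; dashed lines mark 2 and -2. ALB and AFP stood above every gene of the 4 lists.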

How the data were processed

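RNA of 1 MAEL WT and 1 MAEL KO sample of PLC8024 cells was sequenced on a HiSeq platform. The authors deposited raw whole-number read counts for each gene and FPKM values, which equal the counts divided by gene length and by a library size of 1.0989 (MAEL WT) and 0.91001 (MAEL KO) times the total counts. The submitters' processing notes name HISAT2 2.0.5, featureCounts 1.5.0-p3 and the build hg19, but all 58735 listed genes have the coordinates of GENCODE 29 on GRCh38, which are used here. The strand setting of the counting is not given in the sources used here.

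Counts were scaled by TMM in edgeR 4.0.16 (factors 1.10044 and 0.90873), with DESeq2 1.42.0 size factors as an alternative, in R 4.3.3. Fold changes, exact Poisson intervals of counts and exact Clopper-Pearson intervals (95%) for the fraction of each gene's reads found in MAEL KO were computed in Python 3.11.15 with SciPy 1.17.1, and plots were drawn with matplotlib 3.10.9. Genes needed 10 counts in at least 1 library for a fold change to be counted. At the library totals, 3 counts, the floor, are 0.1507 and 0.144 CPM. With 1 library per condition there is no replicate error, and no test was made. The log2 threshold of 2 follows the study's methods. The study also set a cutoff on an adjusted p value, which was not applied here, so the counts past the threshold are not comparable with its calls. Both sample columns of each table were used. Only the fold change and its interval were tested on simulated data. These were Poisson counts at given scaling factors, in genes with higher MAEL WT counts than the members had.

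The members and gene lists were chosen with earlier results of these data known. Genes named are the members, MAEL, all neighbours within 2 Mb above the count minimum, the 5 coding genes nearest in log2 fold change to ALB and to AFP, and, in each list, genes past the threshold and some others named for their role. Some listed genes and a motif are not reported here. Alternatives were other scalings, added counts of 0.1 and 5, other count filters, a threshold of 1 and a window of 500 kb.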

Additional observations from a re-analysis of the deposited data

How the results depend on the processing

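The members kept their direction under every scaling and added count tried: ALB between 7.09 and 7.39 on the log2 scale, AFP between 5.58 and 5.90, GC between 3.22 and 3.57, while AFM, with 5 counts, ran from 1.06 to 5.78. ALB, AFP and GC stayed above 2. Ratios between members are the same from counts per length and from FPKM. This follows from how the FPKM values were computed and is no check of the ratios. No paired analysis was possible because each condition has 1 library, and for the same reason no library could be left out and the spread between cultures is not known. Scaling by total counts shifted the median of all genes to -0.31 and that of chromosome 4 to -0.41. It turned the median of the transcription factors to -0.028 and left 2 of them above 2, put 1 plasma protein below -2 and left 1 cargo-handling gene above 2. With 5 added, 250 of all genes lay above 2 and 513 below -2, on chromosome 4 25 lay below, and the transcription factors had 2 above, the oncofetal genes 1 above and 0 below, and the cargo-handling genes 1 above. With 0.1 added, 1 plasma protein lay below -2. With no count filter, 1029 of all genes lay above and 1773 below, on chromosome 4 41 and 88, and 9 neighbours lay below, and the median was 0 both for all genes and for chromosome 4. The median of the endothelial markers then turned to -0.95. With a minimum of 100 counts, 185 of all genes lay above and 283 below (9 and 18 on chromosome 4), with medians of 0.066 and 0.020, which turned the sign of both. Oncofetal genes then had 1 above and 0 below and cargo-handling genes 1 above, and the blood marker median turned to -0.55. A threshold of 1 gave 1827 above and 2951 below (66 and 127 on chromosome 4), among neighbours 1 and 8, transcription factors 10 and 2, plasma proteins 14 and 2, oncofetal genes 5 above, cargo-handling genes 3 below, and secretory genes 1 and 1. Within 500 kb, 1 neighbour lay below -2. Causes of these moves were not tested, apart from the number of genes compared, which the count filters set. Of the values of the marker lists, a further 27 moved.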
